A study of Mus musculus with 18 samples.

Results

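Of the 18 RNA-seq libraries in a study of mouse bone marrow-derived mast cells, 6 were compared here: the 3 WT libraries of level 60 against the 3 WT libraries of level 20. They were chosen by the names of the read count columns, and the 3 numbers 4120, 414 and 6110 occur once in each group. Bone marrow-derived mast cells are grown in culture from marrow, here flushed out of the femurs and tibias, and serve as a model of tissue mast cells. WT cells carried the Sirt6 flox/flox alleles, in which loxP sites flank part of the gene, and no Cre. The KO cells, which appear below for comparison, carried the same floxed alleles and LysM-Cre, a recombinase driven by the lysozyme M promoter of myeloid cells. The Sirt6 protein is a sirtuin that removes acetyl groups from histones.

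WT 60 and WT 20 cells had both been stimulated, and WT 0 cells had not. As the stimulus the labels give lipopolysaccharide (LPS), which acts through the receptor TLR4, while the series title speaks of FcεRI, the mast cell receptor for IgE. The labels give the levels no unit, so the words early and late are used below for gene sets and not for measured times. Nor do they say if the numbers stand for separate animals or cultures. The p-values therefore measure only the spread between these samples, and how much of it is technical is not known. Immediate early genes are those whose transcription starts within minutes of a stimulus, from factors that the resting cell already holds. Their products are transcription factors of the AP-1, EGR and NR4A families, cytokines, and inhibitors that shut the signal down, and many of their mRNAs carry elements that make them short-lived. Mast cells release stored granules when the IgE receptor is crosslinked and then make cytokines and lipid mediators from new transcripts.

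Total counts ran from 24490548 to 36474588 in the 6 libraries, and CPM are the counts of a gene relative to the TMM-scaled library size. Genes of mitochondrial DNA took 8.84%, 41.9% and 15.8% of the counts in WT 60, against 33.8%, 6.56% and 12.2% in WT 20, in the order 4120, 414 and 6110. Xist, the RNA of the inactive X chromosome, was above 1850 CPM in both libraries of number 414 and at most 1.62 CPM in the other 4 libraries, so that each group held 1 library of this kind. Both groups carried mast cell markers. The 10 mast cell markers, among them Kit, the IgE receptor chain Fcer1a and the protease Cpa3, summed to between 17100 and 42400 CPM in WT 60 and between 21500 and 39300 CPM in WT 20, and 0 of the 10 passed the test. Summed levels were 31.1 to 188 CPM in WT 60 and 28.5 to 167 CPM in WT 20 for 8 macrophage markers, of which Mrc1 and Marco were at 0. Those of 8 neutrophil markers reached at most 4.95 CPM in WT 60 and 3.73 CPM in WT 20, with Elane at 0. The 3 basophil markers, Cd200r3, Prss34 and Mcpt8, had the highest sums of the other cell types, 156 to 233 CPM in WT 60 and 129 to 204 CPM in WT 20, and none was at 0 or called. The highest value of a single gene was 228 CPM among the basophil markers and 185 CPM among the macrophage markers. The highest sums of both lists thus came almost wholly from 1 gene each. Sums were at most 7.1 CPM in WT 60 and 6.6 CPM in WT 20 for 4 dendritic cell markers, with Siglech at 0. What part such cells have in the results was not tested.

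At 60 the WT cells held far less of many immediate early transcripts that were abundant at 20, among them those of Fos, Tnf, Dusp1 and Il13, and a smaller set of other transcripts, such as Picalm and Fermt2, stood higher. In edgeR's quasi-likelihood test with Benjamini-Hochberg adjustment, 49 of 17159 genes (0.286%) were called lower and 27 (0.157%) higher in WT 60 than in WT 20 at an adjusted p under 0.05. The 49 falls ran from 0.76 to 4.63 on the log2 scale, with a median log2 fold change of −2.31, and the 27 rises ran from 0.97 to 2.78, with a median of 1.52. The median over all genes tested was 0.01. In RNA of whole cultures, fewer responding cells and less RNA per cell cannot be told apart. For all 76 genes the ranges of the 3 WT 60 and the 3 WT 20 libraries did not overlap, which was so in the lower direction for 6.1% and in the higher direction for 5.25% of all genes tested.

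How many genes passed depended on the fit. The spread in these tests came from all 18 libraries. With the 6 libraries alone edgeR called 3 genes, Fos, Ovca2 and Snora31, all of them lower, and with the 9 WT libraries it called 15, whereas DESeq2 on all 18 called 330, all 76 among them. Of the 76 calls 35.5% were rises. That share was 18.9% of 37 calls when counts were scaled by library size alone and 13.8% of 29 calls with the deposited TPM values, which moved the median of all genes by −0.17. Leaving out number 414 from both groups left 11 calls, leaving out number 4120 left 22 and leaving out number 6110 left 44. With single libraries left out, the count was 38 without WT 20 of number 414, 40 without WT 60 of number 414 and 47 without WT 20 of number 4120. With the log2 mitochondrial share as a covariate 128 genes were called, all 76 among them. Without the 2 libraries over 30% mitochondrial share, WT 60 of number 414 and WT 20 of number 4120, 21 genes were called, 20 of them among the 76, an alternative chosen after seeing the data. The mean share was 22.2% ± 17.5 in WT 60 and 17.5% ± 14.4 in WT 20 (SD, n = 3 each; two-sided exact permutation test p = 0.6, where 0.1 is the smallest p that 3 against 3 libraries allow).

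The AP-1, EGR and NR4A transcription factors made up the largest group of falls. Fos, whose protein pairs with JUN to form the factor AP-1 (chr12:85473890-85477274 in GRCm38.p6), had 28, 19.5 and 36.2 CPM in WT 60, against 495, 995 and 589 CPM in WT 20. Its WT 20 libraries were all above 490 CPM and its WT 60 libraries all below 37 CPM, close to the 12.5 to 20.1 CPM of WT 0. On the log2 scale Fos fell by 4.63 ± 0.36 (SE), the largest fall among the named genes (edgeR adjusted p = 8.2e-06). Jun, its partner in AP-1, had 74.5, 36.8 and 103 CPM in WT 60, against 435, 852 and 754 CPM in WT 20 (log2 fold change −3.25 ± 0.40, edgeR adjusted p = 0.0011). Egr2, a zinc finger factor, had 36.7, 28.2 and 82.1 CPM in WT 60, against 378, 609 and 455 CPM in WT 20 (log2 fold change −3.29 ± 0.44, edgeR adjusted p = 0.0019). In each of these genes every WT 60 library lay below every WT 20 library.

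Nr4a1, an orphan nuclear receptor, was among the most abundant of these transcripts at 20. It had 369, 146 and 830 CPM in WT 60, against 2850, 3590 and 3380 CPM in WT 20, and fell by 2.87 ± 0.53 on the log2 scale (edgeR adjusted p = 0.021). The 3 WT 20 libraries lay close together, while the WT 60 libraries were spread over a wide range. The other members of the list that fell were Junb (−2.47) and Fosb (−1.92), both partners in AP-1, Egr1 (−2.86), and Csrnp1 (−2.36), a nuclear protein of the AXUD1 family. Of 27 immediate early transcription factors 8 fell and 0 rose, with a median log2 fold change of −1.08, beside 0.286% of all genes tested called lower. Among those not called, 9 had negative and 10 positive values. Nr4a3 averaged 627 ± 274 CPM in WT 60 and 515 ± 373 CPM in WT 20 (SD, n = 3 each), and Egr4 averaged 48.7 ± 39.8 and 47.7 ± 6.78 CPM in the same order. Myc, a growth-promoting factor, had 72.6, 33.9 and 69.5 CPM in WT 60, against 9.52, 6.53 and 23 CPM in WT 20. The 2 groups did not overlap for Myc, but its log2 fold change of 2.17 ± 0.53 was not called (edgeR adjusted p = 0.098).

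Cytokine transcripts fell with the transcription factors. Tnf, the tumour necrosis factor that mast cells both store and make anew, had 19.4, 14.5 and 68.5 CPM in WT 60, against 354, 938 and 860 CPM in WT 20 (log2 fold change −4.39 ± 0.61, edgeR adjusted p = 0.0024). The groups did not overlap, and number 6110 was the highest of the WT 60 libraries. Il13, a type 2 cytokine, had 5.15, 1.22 and 15.3 CPM in WT 60, against 109, 191 and 127 CPM in WT 20 (log2 fold change −4.29 ± 0.68, edgeR adjusted p = 0.0065). In unstimulated cells Il13 was nearly missing, at 0.554, 0.134 and 0.376 CPM. All WT 60 libraries were above every WT 0 library (log2 fold change against WT 0 of 4.45, edgeR adjusted p = 0.028). Lif and Osm, cytokines of the IL-6 family, averaged 63.5 ± 26 and 13.6 ± 2.48 CPM in WT 60, against 508 ± 175 and 129 ± 59.8 CPM in WT 20 (SD, n = 3 each). They fell by 3 and 3.24 on the log2 scale (edgeR adjusted p = 0.018 and 0.01). Osm at 60, with 11.4 to 16.3 CPM, overlapped its WT 0 libraries, with 13.1 to 16.3 CPM.

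Il6 (−2.62) and Il4 (−1.28), a type 2 cytokine like Il13, also fell. Of 22 cytokine genes 16 were tested, 6 of these fell and 0 rose, and the median log2 fold change was −1.49. Of all genes tested, 0.286% were called lower and 0.157% higher. Il1b had 1.95, 2.17 and 3.85 CPM in WT 60, against 19, 49.8 and 8.75 CPM in WT 20, and was not called (log2 fold change −3.28, edgeR adjusted p = 0.057). Il33 and Il10 had the highest fold changes of the list, 3.87 and 3.84, at mean levels under 1 CPM in both groups, and were not called (edgeR adjusted p = 0.32 and 0.44). Of 16 chemokine genes 10 were tested and 2 fell, beside the same 0.286% of all genes. Ccl3, a chemokine that attracts leukocytes, had 79, 33.1 and 130 CPM in WT 60, against 769, 1080 and 729 CPM in WT 20 (log2 fold change −3.41 ± 0.43, edgeR adjusted p = 0.0014). The annotation of Ccl3 overlaps that of Ccl4, a related chemokine with 74, 12.2 and 184 CPM in WT 60, against 411, 958 and 543 CPM in WT 20, which was not called (log2 fold change −2.82, edgeR adjusted p = 0.11). Reads in the shared stretch may count for either gene. Ccl2, which attracts monocytes, averaged 281 ± 118 CPM in WT 60 and 1070 ± 100 CPM in WT 20 (log2 fold change −1.93, edgeR adjusted p = 0.035; SD, n = 3 each).

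Per length of transcript, Junb, Nr4a1 and Ccl2 were the most abundant at 20 of the called genes described so far. Junb averaged 421 TPM in WT 60 and 2630 TPM in WT 20, Nr4a1 279 and 2290 TPM, and Ccl2 568 and 2260 TPM in the same order. Il13 was far lower, at 9.24 TPM in WT 60 and 212 TPM in WT 20. TPM, the authors' deposited unit, corrects for length.

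In 2 lists, the MAPK phosphatases and the IkB family with NF-kB feedback, 4 genes fell, beside 0.286% of all genes tested. Dusp1, a phosphatase that switches off the kinases p38 and JNK, had 11.8, 4.82 and 21.7 CPM in WT 60, against 209, 360 and 228 CPM in WT 20 (log2 fold change −4.37 ± 0.52, edgeR adjusted p = 0.001). It was the 1 of 10 MAPK phosphatases that fell. Dusp5 and Dusp6, which act on ERK, had log2 fold changes of −1.49 and −1.37 and were not called (edgeR adjusted p = 0.2 and 0.31), and the median of the 10 was −0.88. In the list of the IkB family and NF-kB feedback, 3 of 12 fell: Nfkbid (−2.88) and Nfkbiz (−2.83), nuclear IkB proteins, and Tnfaip3 (−2.77), the ubiquitin-editing inhibitor A20. Nfkbid had 86.2, 83.5 and 320 CPM in WT 60, against 915, 1550 and 1130 CPM in WT 20. Its WT 60 values lay between those of WT 20 and those of WT 0, which had 27.6 to 41.8 CPM (log2 fold change against WT 0 of 2.30, edgeR adjusted p = 0.043). Nfkbia, the IkB protein that holds NF-kB in the cytoplasm, had 28.6, 26.2 and 79.1 CPM in WT 60, against 145, 217 and 134 CPM in WT 20, and was not called (log2 fold change −1.89, edgeR adjusted p = 0.08). Of the 10 NF-kB subunits and survival targets 0 were called, with a median of −0.11. Of the Sprouty, SPRED and ERRFI1 inhibitors of receptor tyrosine kinase signalling, 6 were tested and 0 called, with 3 negative and 3 positive values and a median of −0.01.

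Btg2, an antiproliferative protein that promotes mRNA deadenylation, had 6.81, 1.64 and 7.61 CPM in WT 60, against 153, 67 and 59.3 CPM in WT 20 (log2 fold change −4.10 ± 0.68, edgeR adjusted p = 0.0089). With Ppp1r15a (−2.05), a phosphatase subunit that ends the arrest of translation, and Ier2 (−2.58), 3 of 16 IER and BTG early response genes fell. The list had a median of −0.69, and 0.286% of all genes tested were called lower. Ppp1r15a overlaps Tulp2 in the annotation, and Tulp2 had a log2 fold change of −1.76. Zfp36l1, which binds AU-rich elements and destabilises mRNA, was the 1 of 13 mRNA decay factors that fell (−1.63, edgeR adjusted p = 0.0016). The median of that list was 0.09. Its relative Zfp36 had a log2 fold change of −2.52 (edgeR adjusted p = 0.11), and Zc3h12c, a nuclease of the Regnase family, one of 1.82 (edgeR adjusted p = 0.063), and neither was called. Pim3, a serine kinase induced by cytokines, was the 1 of 11 genes of the SOCS, CISH and PIM list that fell (−1.78, edgeR adjusted p = 0.0011).

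Ptgs2, the inducible cyclooxygenase of prostaglandin synthesis, had 6.1, 8.9 and 15 CPM in WT 60, against 97.6, 108 and 62.2 CPM in WT 20 (log2 fold change −3.15 ± 0.42, edgeR adjusted p = 0.0016). It was the only 1 of 8 genes of prostaglandin and leukotriene synthesis that was called. At 60 it was above all WT 0 libraries, which had 0.783 to 1.6 CPM (log2 fold change against WT 0 of 3.11, edgeR adjusted p = 0.0084). Per1, a clock gene with CREB sites, fell by 1.75 on the log2 scale and Cd69, a surface marker of activated leukocytes, by 1.69. Gpr137c, which encodes a membrane protein, had 3.92, 4.13 and 8.46 CPM in WT 60, against 72, 53.4 and 40.9 CPM in WT 20 (log2 fold change −3.33 ± 0.41, edgeR adjusted p = 0.0011). Ovca2, a serine hydrolase gene chosen here after its values were seen, had the smallest p of the comparison (24.2 ± 3.65 CPM in WT 60 and 118 ± 17.6 CPM in WT 20, SD, n = 3 each; log2 fold change −2.28, edgeR adjusted p = 7.4e-06). It overlaps Dph1, which had a log2 fold change of 0.35. Snora31, a small nucleolar RNA inside an intron of Tpt1, had 1.95 to 2.31 CPM in WT 60 and 15.5 to 18.4 CPM in WT 20 (log2 fold change −3.06, edgeR adjusted p = 0.00069). The libraries were made from mRNA and Tpt1 itself had a log2 fold change of 0.24, so the value of Snora31, like those of the called Mir6935 in Actg1 and Mir1668 in Ddx39a and Adgre5, may hold reads of the host gene.

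**Figure D1:**
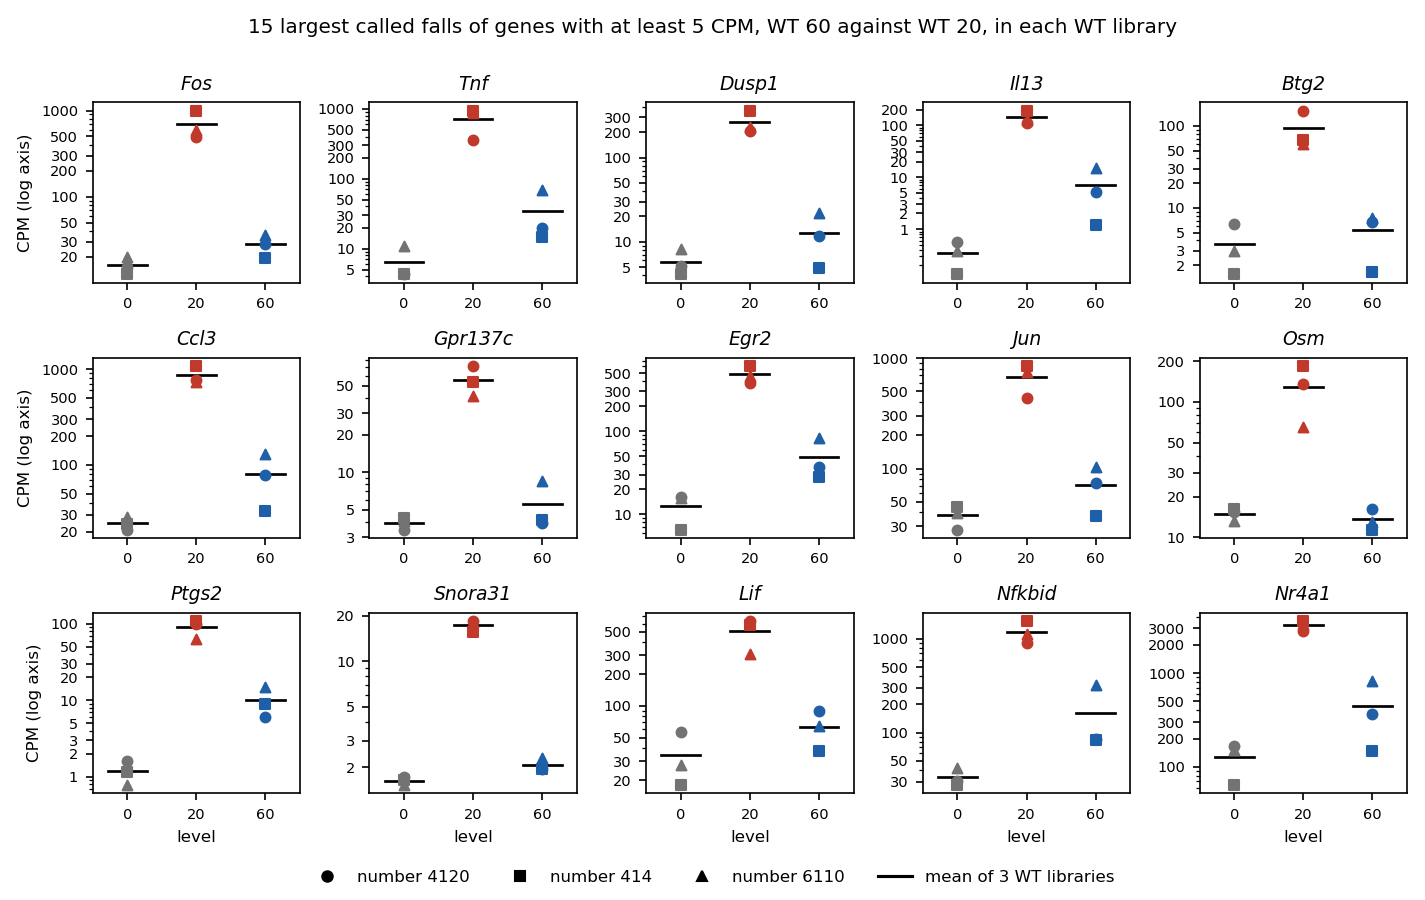
CPM on a log axis in each WT library at levels 0, 20 and 60, for the 15 largest called falls among genes that averaged 5 CPM or more at 20 or 60. Symbols mark the library numbers and lines the mean of 3 libraries. In all 15 genes the 3 libraries at 60 lie below the 3 at 20, and for 8 of the 15, with Osm the only one in all 3 libraries, a library at 60 lies no higher than the highest at 0.

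How near the WT 60 values lay to those of WT 0 varied between genes. The comparisons with WT 0 use the same WT 20 and WT 60 libraries, so their values are set side by side and give no further support. Of the 49 genes that fell, 38 were called higher in WT 20 than in WT 0 (0.6% of all genes tested), and 31 had a higher mean in WT 60 than in WT 0. Of the 49, 3 genes, Il13, Ptgs2 and Nfkbid, were called higher in WT 60 than in WT 0, where 0.198% of all genes were. For Fos the mean in WT 60 lay above that of WT 0 by 1.78% of the difference between WT 20 and WT 0. This share was 1.95% for Btg2, 2.69% for Dusp1, 3.89% for Tnf, 4.84% for Il13, 10.2% for Nr4a1 and 11.2% for Nfkbid. For Osm it was −1.18%, that is, its mean in WT 60 was below that in WT 0.

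Of the 49 falls, 3 were called lower in WT 60 than in WT 0, and others had a lower mean there without a call. Sertad3, a transcriptional coregulator gene, had 4.06, 5.3 and 3.73 CPM in WT 60, against 12.5, 11 and 12.2 CPM in WT 20 and 11.7, 13.5 and 11.1 CPM in WT 0. Its log2 fold change was −1.45 against WT 20 and −1.47 against WT 0 (edgeR adjusted p = 0.0024 and 0.0084). Bicra, a subunit of a BAF chromatin remodelling complex, and Ccm2, an adaptor protein of the cerebral cavernous malformation complex, were likewise called lower in WT 60 than in WT 0 (0.0233% of all genes tested were), with log2 fold changes of −0.91 and −0.99. Bicra averaged 21.7 CPM in WT 60, 53.9 CPM in WT 20 and 40.8 CPM in WT 0, and Ccm2 67.2, 134 and 133 CPM in the same order. Sertad3, Bicra and Ccm2 were singled out by the call against WT 0 after their values were seen.

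Of the 27 transcripts that rose, 0 stood in any of the gene lists and 29 of the 49 falls did, where 380 of 17159 genes tested are on a list. The lists were chosen with earlier results of these data known, so these counts say nothing of which kinds of genes rose. None of the 27 was called higher in WT 20 than in WT 0, and the mean in WT 20 was above that in WT 0 for 8 of them, as it was for 8006 of the 17159 genes tested. All 27 had a higher mean in WT 60 than in WT 0, as did 8155 of the 17159, and 12 were called higher there (0.198% of all genes tested). Picalm, a clathrin assembly protein of endocytosis (chr7:90130192-90209447 in GRCm38.p6), had the highest level among the 15 named rises, at 440, 508 and 547 CPM in WT 60, against 158, 102 and 157 CPM in WT 20. Its WT 0 libraries had 173, 170 and 199 CPM, and the 3 WT 60 libraries stood above every library of the other levels. The log2 fold change over WT 20 was 1.84 ± 0.21 (edgeR adjusted p = 0.00069), and over WT 0 it was 1.46 (edgeR adjusted p = 0.0084).

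S1pr3 had the largest fold change of the named rises and encodes a receptor for sphingosine 1-phosphate. It had 6.84, 8.05 and 14 CPM in WT 60, against 1.21, 1.25 and 2.62 CPM in WT 20 (log2 fold change 2.5 ± 0.48, edgeR adjusted p = 0.026). Number 6110 had the highest value at each level. Fermt2, the integrin activator kindlin-2, had 7.24, 14 and 17.2 CPM in WT 60, against 1.62, 2.35 and 3.11 CPM in WT 20 (log2 fold change 2.43 ± 0.37, edgeR adjusted p = 0.0051). Stk38l, a kinase of the NDR family, had 21.9, 13.3 and 15.3 CPM in WT 60, against 5.3, 5.4 and 3.39 CPM in WT 20 (log2 fold change 1.85 ± 0.31, edgeR adjusted p = 0.0099). For both genes the WT 0 libraries lay near those of WT 20, at 2.69 to 3.94 CPM for Fermt2 and 3.6 to 6.28 CPM for Stk38l.

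Slc7a1, a transporter of arginine and other cationic amino acids, had 44.6, 50.9 and 104 CPM in WT 60, against 16.1, 16.8 and 25.1 CPM in WT 20 (log2 fold change 1.79 ± 0.33, edgeR adjusted p = 0.02). Ptpn22, a phosphatase that dampens antigen receptor signalling in lymphocytes, had 87.4, 203 and 132 CPM in WT 60, against 56.8, 44.7 and 38.7 CPM in WT 20 (log2 fold change 1.59 ± 0.29, edgeR adjusted p = 0.019). Loxl2, a lysyl oxidase that crosslinks collagen, had closely spaced values, 42.7, 38.6 and 46.6 CPM in WT 60, against 13.7, 15.1 and 15 CPM in WT 20 (log2 fold change 1.54 ± 0.32, edgeR adjusted p = 0.04). Mycn, a transcription factor of the MYC family, averaged 36.4 ± 8.88 CPM in WT 60 and 12.6 ± 4.86 CPM in WT 20 (log2 fold change 1.52, edgeR adjusted p = 0.029; SD, n = 3 each). The prostacyclin receptor gene Ptgir (1.47), the RNase P subunit gene Rpp25 (1.96), the chaperonin-like gene Bbs10 (1.84), Bpifc (1.37) and AI593442 (2.18) rose as well, together with the long noncoding RNAs Gm10369 (1.87) and C430002N11Rik (1.46). Rpp25, AI593442 and Bpifc had means of 6.31, 15.9 and 4.67 CPM in WT 20, below their means of 12.2, 28.1 and 7.04 CPM in WT 0, but none of these 3 was called lower there. Gm10369 overlaps Limk1, so its reads cannot be assigned with certainty.

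Among the rises below the 15 largest were Ripk2 (1.07), the kinase that relays NOD receptor signals to NF-kB, Vmp1 (1.07), a membrane protein needed for autophagosomes, the kinase gene Wnk1 (1.05), the signalling scaffold gene Spag9 (0.99) and Nsun6 (1.22), an RNA methyltransferase. They were picked for their calls against WT 0, and Ripk2 had 49.5, 46.5 and 68.3 CPM in WT 60, against 27.2, 25.6 and 25.8 CPM in WT 20. Vmp1 averaged 702 ± 134 CPM in WT 60 and 335 ± 50.1 CPM in WT 20 (SD, n = 3 each). Of the 27, 2 genes, Gm2511 (2.65) and Cnih3 (2.78), had larger fold changes than those named above at means under 3 CPM in WT 60.

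**Figure D2:**
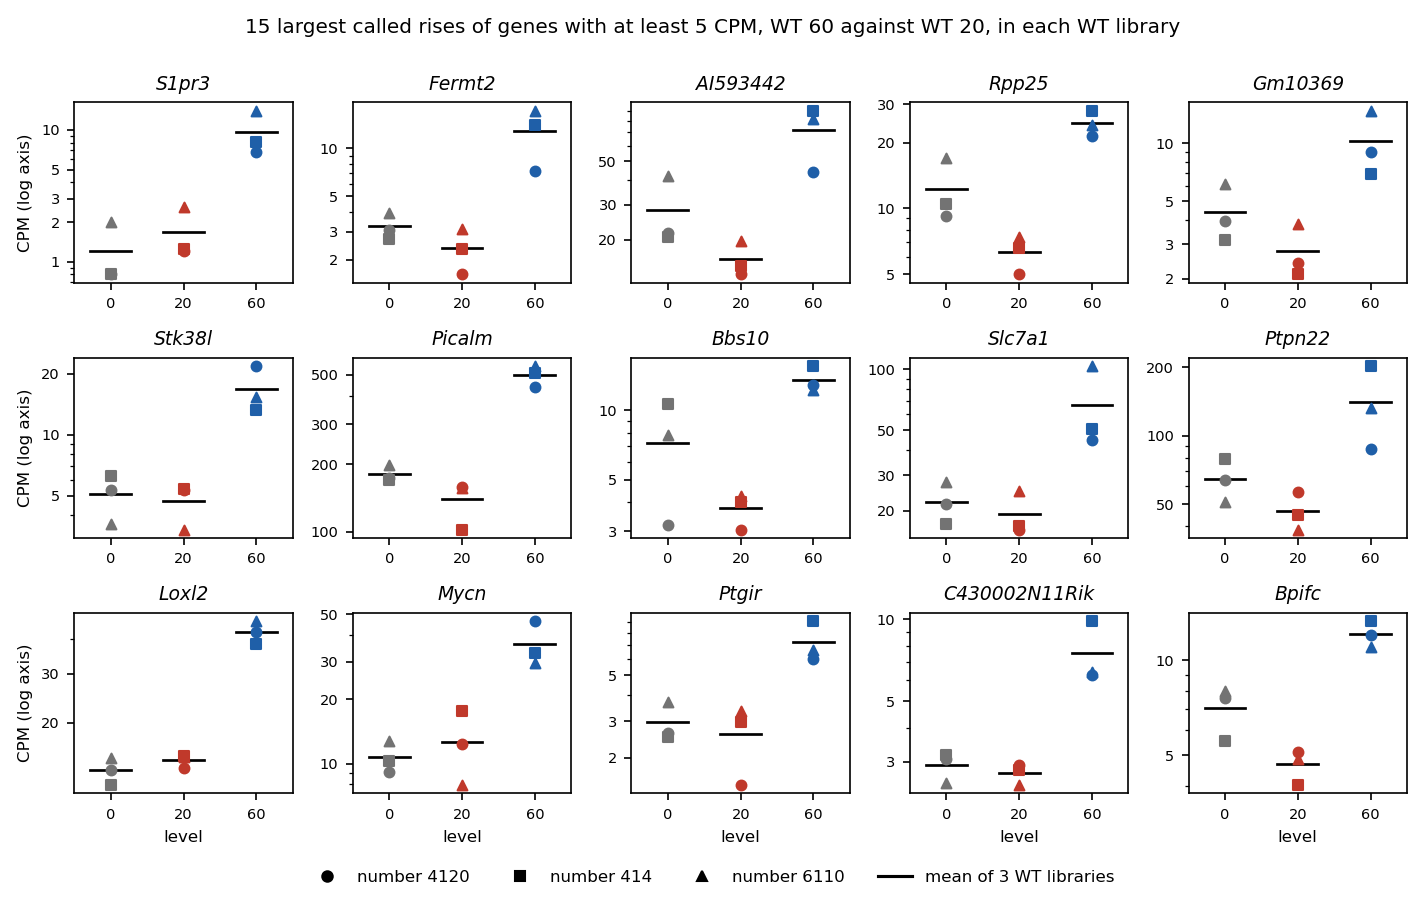
CPM on a log axis in each WT library at levels 0, 20 and 60, for the 15 largest called rises among genes that averaged 5 CPM or more at 20 or 60. Symbols mark the library numbers and lines the mean of 3 libraries. In all 15 genes the 3 libraries at 60 lie above the 3 at 20, as for Picalm with 440 to 547 CPM at 60 and 102 to 158 CPM at 20.

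Every call in the gene lists was a fall, and many lists held no call. Of 10 tested CREB and cAMP response genes 3 fell, Dusp1, Nr4a1 and Per1, with a list median of −1.14, beside 0.286% of all genes tested. Apart from the lists above, Osgin1 (−1.21), an oxidative stress-induced growth inhibitor, was the 1 of 12 NRF2 antioxidant genes that fell, and Cd69 the 1 of 10 tested surface activation markers. None of the 14 genes on the list of the integrated stress response was called, although 10 had positive values and the list median was 0.54. Ppp1r15a, which fell, and Slc7a1, which rose, are not on this list. The largest value of the list was that of Trib3, a pseudokinase, at 128 ± 38.5 CPM in WT 60 and 56.9 ± 21.2 CPM in WT 20 (log2 fold change 1.17, edgeR adjusted p = 0.14, SD, n = 3 each). None of the 18 genes of cholesterol synthesis, with a median of 0.05, the 18 of glycolysis (−0.09), the 13 of the heat shock response (0.08), the 14 of the BCL2 family (0.19) or the 15 tested genes of the interferon response (−0.39) was called. None of the 9 tested RGS proteins, which switch off G protein signals (−0.3), the 12 genes of NFAT and calcineurin (0.05), the 7 tested growth factors (0.14) or the 16 histone and cell cycle genes (−0.18) was called either. The genes of stored mediators and receptors gave no calls. Of 13 mast cell proteases (median 0.08), 8 genes of histamine, serotonin and serglycin (−0.07), 15 of the IgE receptor and its proximal signalling (0.03), 12 of the TLR4 complex (0.12) and 12 lineage transcription factors (−0.24), 0 were called. Fcer1a averaged 2200 ± 787 CPM in WT 60 and 2020 ± 193 CPM in WT 20, and Ms4a2, the beta chain of the IgE receptor, 1160 ± 143 and 1170 ± 151 CPM in the same order (SD, n = 3 each). A missed call does not show that a gene held its level.

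To see which early transcripts were lower at 60 without choosing them in the WT libraries, the early genes were taken from KO cells. This early set holds the 76 genes called higher in KO 20 than in KO 0 (0.443% of genes tested). In WT 60 against WT 20, 32 of the 76 (42.1%) were called lower and 0 higher, beside 0.286% and 0.157% of all genes. Their median log2 fold change was −1.66, and 69 of the 76 had negative values, as did 49.1% of all genes. For 64 of the 76 all 3 WT 60 libraries lay below all 3 WT 20 libraries, which was so for 6.1% of all genes.

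The 7 members with positive values were Egr4 (0.03), the chaperone gene Dnajb1 (0.04), the repressor gene Nfil3 (0.07), the Sprouty inhibitor gene Spry2 (0.23), Nr4a3 (0.28), the sulfiredoxin gene Srxn1 (0.28) and the pseudokinase gene Trib1 (0.49). None of them was called. Srxn1, which repairs oxidised peroxiredoxins, had 1140, 809 and 1750 CPM in WT 60, against 1050, 1130 and 862 CPM in WT 20 and 291, 193 and 380 CPM in WT 0. The WT 60 and WT 20 libraries of Srxn1 overlapped, and both groups lay above WT 0 (log2 fold change of WT 60 over WT 0 of 2.1, edgeR adjusted p = 0.014).

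The late set holds the 285 genes called higher in KO 60 (1.99% of genes tested were) and not in KO 20, each against KO 0. In WT 60 against WT 20, 21 of the 285 (7.37%) were called higher and 0 lower, beside 0.157% and 0.286% of all genes tested. The median log2 fold change was 0.58, and 243 values were positive, as were 8722 of all 17159. Of the 285, 13 were called higher in WT 20 than in WT 0. For 131 of the 285 the 3 WT 60 libraries lay above the 3 WT 20 libraries, which was so for 5.25% of all genes. Thus 21 of the 27 WT rises belonged to this set. The sets do not depend on WT values, but the spread that the test used was estimated from all 18 libraries.

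**Figure D3:**
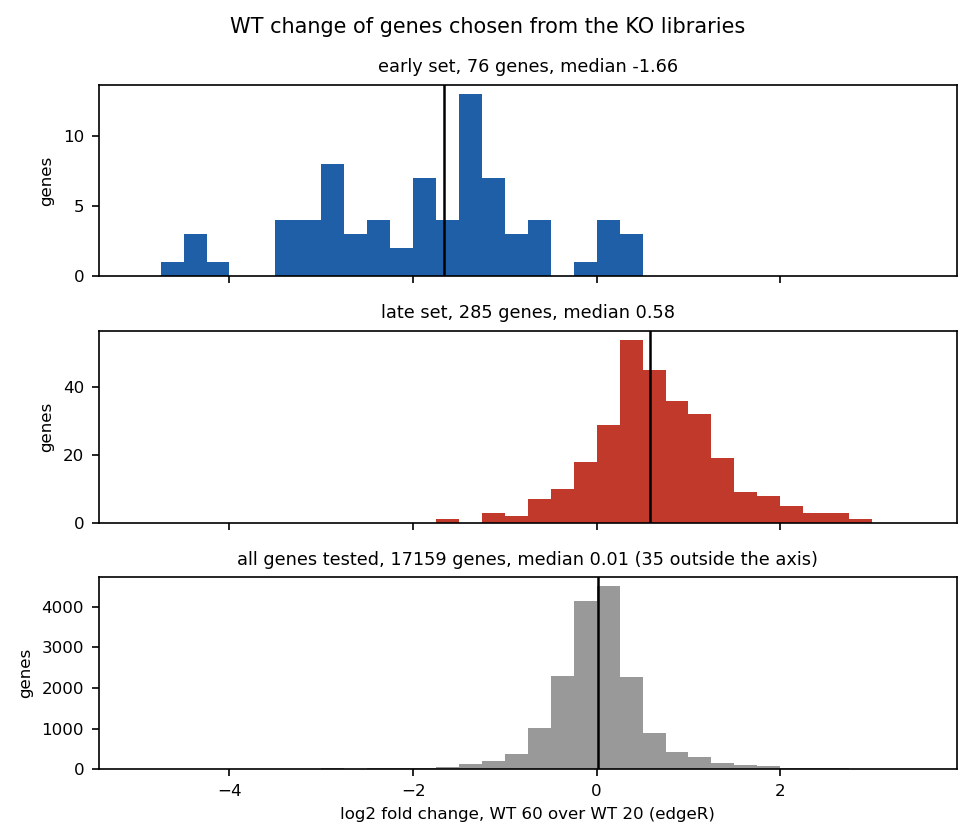
Number of genes by log2 fold change of WT 60 over WT 20, in bins of 0.25, for the early set (76 genes) and the late set (285 genes), both chosen in KO libraries, and for all 17159 genes tested. Black lines mark the medians, −1.66, 0.58 and 0.01.

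The same comparison in KO cells uses other libraries. All 49 genes that fell in WT 60 against WT 20 had negative log2 fold changes in KO 60 against KO 20, where 48.3% of all genes did, and 32 of them were called lower there (0.361% of all genes were). The median over the 49 was −2.31 in WT and −1.36 in KO, a pair in which WT is favoured because the genes were selected on their WT values. How much of the gap between these medians comes from that selection was not tested. All 27 WT rises were positive in KO, and 21 were called higher (0.752% of all genes were), with medians of 1.52 in WT and 1.73 in KO. The test of the difference between the 2 changes called 0 of 17159 genes in edgeR, with 154 at an unadjusted p under 0.05, and 0 in DESeq2. Fos had a log2 fold change of −4.63 in WT and of −4.97 in KO (edgeR adjusted p = 7.5e-06 in KO), where it had 33.6, 24.5 and 29 CPM in KO 60, against 885, 1200 and 641 CPM in KO 20. Il13 had a log2 fold change of −4.29 in WT and one of −1.48 in KO, which was not called (edgeR adjusted p = 0.36), with 64.5, 23.9 and 54.6 CPM in KO 60, against 169, 150 and 82.5 CPM in KO 20. The highest WT 60 library of Il13, at 15.3 CPM, was below the lowest KO 60 library, yet the difference in change, −2.80 for WT minus KO, was not called (edgeR adjusted p = 1). Stk38l had a log2 fold change of 1.85 in WT and one of 0.64 in KO (edgeR adjusted p = 0.49), with 7, 3.86 and 3.83 CPM in KO 60, against 3.82, 3.03 and 2.6 CPM in KO 20, and its difference of 1.21 was not called either (edgeR adjusted p = 1). The log2 fold change of Picalm was 1.84 in WT and 2.02 in KO, and that of Fermt2 2.43 in WT and 2.83 in KO.

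**Figure D4:**
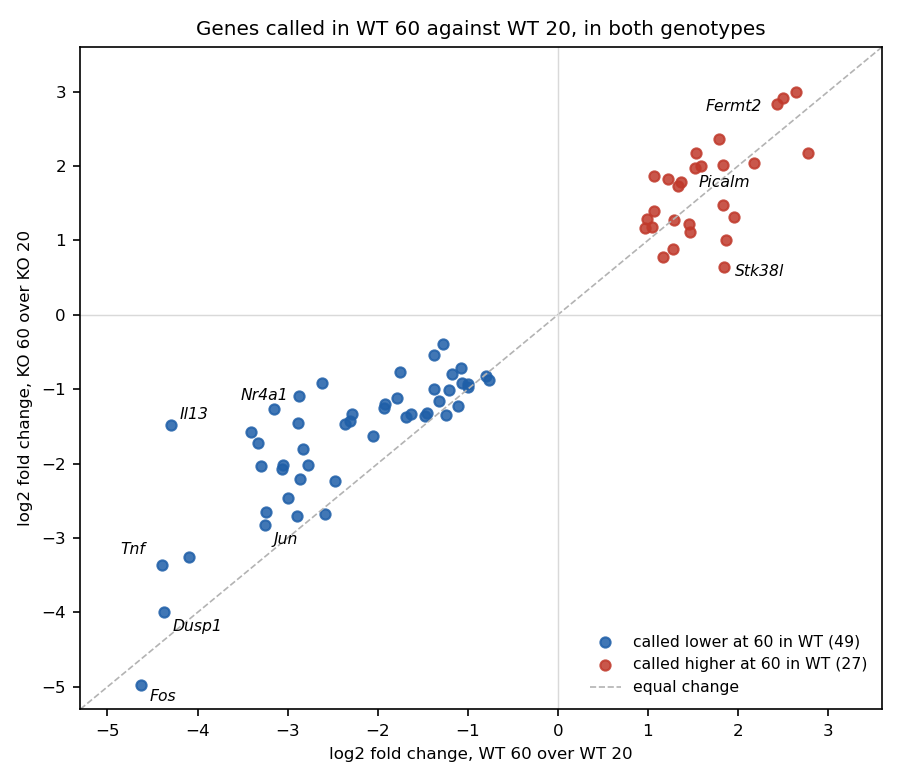
Log2 fold change of WT 60 over WT 20 on the horizontal axis and of KO 60 over KO 20 on the vertical axis for the 76 genes called in WT, 1 point per gene, with the line of equal change dashed. All 49 genes called lower in WT lie below 0 in KO and all 27 called higher lie above 0, and most of the falls, such as Il13 at −4.29 in WT and −1.48 in KO, sit above the dashed line.

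The 2 directions differed in the length of the genes. From first to last annotated base, the 49 falls had a median span of 7.72 kb (quartiles 3.38 and 20.9), and 28 of them (57.1%) were shorter than 10 kb. The 27 rises had a median of 40.9 kb (quartiles 8.76 and 75.9), and 9 (33.3%) were shorter than 10 kb. Over all genes tested the median was 16.6 kb, with 36.3% under 10 kb. The early set had a median of 5.28 kb and the late set one of 19.2 kb. The falls spanned from 0.064 kb (Mir6935) to 92.1 kb (Atf7ip), and the rises from 1.35 kb (Rpp25) to 130 kb (Spag9). These spans are a description with no test.

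Promoters were read to show the sequences in front of the genes that moved most. The 250 bases before each listed transcript start were taken from RefSeq on GRCm38.p6, where 38 of the 49 falls, 24 of the 27 rises and 12472 of the genes tested have an entry. These 6 motifs were searched on both strands: the cAMP response element or CRE (TGACGTCA), the AP-1 site (TGANTCA), an EGR site (GCGTGGGCG), the TATA box (TATAAA), the CArG box of serum response factor and the NF-kB consensus, the last 2 by their usual degenerate forms. CREs were found for 5 falls (13.2%), 1 rise (4.17%) and 2.72% of all genes, and AP-1 sites for 8 falls (21.1%), 2 rises (8.33%) and 6.19% of all genes. The NF-kB consensus was found for 7 falls (18.4%), 1 rise (4.17%) and 5.31% of all genes, the TATA box for 7 falls (18.4%), 1 rise (4.17%) and 8.83% of all genes, and the CArG box for 2 falls (5.26%), 1 rise (4.17%) and 1.36% of all genes. The EGR site was found for 0 falls, 0 rises and 1.1% of all genes. The CREs stood in front of Btg2, Dusp1, Nfkbid, Pdzd8 and Ppp1r15a among the falls and of Stk38l among the rises. A match shows that these letters are there, not that a factor binds, and a gene with several annotated starts counts once. A listed start was the outermost one of the gene for 29 of the 38 falls (76.3%) and 14 of the 24 rises (58.3%). That was so for 58.8% of all genes tested that have an entry. Otherwise the listed starts lay inside the gene.

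The promoters of the 4 largest falls with a motif before the outermost start are shown 5′ to 3′ on the strand of the gene, with the motifs in capitals. They belong to Fos at chr12:85473640-85473889 on the plus strand, with an NF-kB match that starts 214 bases and a TATA box that starts 33 bases before the gene, and to Tnf at chr17:35202008-35202257 on the minus strand, with a TATA box 29 bases before the gene. Those of Dusp1 at chr17:26508473-26508722 and Il13 at chr11:53634703-53634952 are on the minus strand as well, and hold a CRE 143 bases before the gene and overlapping TATA matches of both strands 31 and 29 bases before it.
Fos: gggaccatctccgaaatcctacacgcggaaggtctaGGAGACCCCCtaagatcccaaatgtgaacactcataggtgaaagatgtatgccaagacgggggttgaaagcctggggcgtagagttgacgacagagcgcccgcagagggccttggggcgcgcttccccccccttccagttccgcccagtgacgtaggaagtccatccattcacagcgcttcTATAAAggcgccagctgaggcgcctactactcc
Tnf: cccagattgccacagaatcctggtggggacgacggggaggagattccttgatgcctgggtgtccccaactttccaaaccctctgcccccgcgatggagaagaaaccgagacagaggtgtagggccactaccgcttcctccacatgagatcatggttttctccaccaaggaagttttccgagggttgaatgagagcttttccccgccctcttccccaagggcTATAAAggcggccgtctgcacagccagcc
Dusp1: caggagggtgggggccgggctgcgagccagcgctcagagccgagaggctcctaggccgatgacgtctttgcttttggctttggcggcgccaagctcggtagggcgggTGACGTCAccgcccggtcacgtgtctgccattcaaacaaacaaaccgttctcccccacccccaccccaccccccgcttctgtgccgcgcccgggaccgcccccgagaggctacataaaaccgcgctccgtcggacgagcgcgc
Il13: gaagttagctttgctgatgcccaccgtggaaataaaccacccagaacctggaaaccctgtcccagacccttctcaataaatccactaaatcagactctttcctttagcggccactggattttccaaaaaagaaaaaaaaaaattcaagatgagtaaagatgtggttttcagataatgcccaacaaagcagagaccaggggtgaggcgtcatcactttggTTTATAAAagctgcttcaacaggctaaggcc

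Of the 15 named rises, 3 hold a motif before the outermost start of the gene and are shown in the same way. Stk38l, at chr6:146724680-146724929 on the plus strand, has a CRE 64 bases before the gene. Slc7a1, at chr5:148399905-148400154, and Bpifc, at chr10:86011861-86012110, both on the minus strand, have AP-1 sites 123 and 51 bases before the gene. None of these 3 holds the exact letters TATAAA on either strand of the window shown for it, and neither does Dusp1 among the falls. Variants of the TATA box were not searched, so such windows may still hold one. The windows of Fos, Tnf and Il13 hold TATA boxes that start between 33 and 29 bases before the gene. Slc7a1 is the 1 rise counted above with a TATA box, before another of its listed starts. Only windows with a motif are shown, so they cannot compare the falls with the rises.
Stk38l: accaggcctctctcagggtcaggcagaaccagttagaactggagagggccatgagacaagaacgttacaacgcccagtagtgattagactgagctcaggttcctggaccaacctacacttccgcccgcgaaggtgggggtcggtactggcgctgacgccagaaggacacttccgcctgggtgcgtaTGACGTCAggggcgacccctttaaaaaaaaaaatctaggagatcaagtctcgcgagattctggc
Slc7a1: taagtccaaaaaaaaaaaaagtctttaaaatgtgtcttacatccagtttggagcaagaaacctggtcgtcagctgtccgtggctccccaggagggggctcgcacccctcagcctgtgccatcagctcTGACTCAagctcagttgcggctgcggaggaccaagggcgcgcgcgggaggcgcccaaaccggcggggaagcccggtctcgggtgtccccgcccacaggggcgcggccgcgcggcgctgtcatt
Bpifc: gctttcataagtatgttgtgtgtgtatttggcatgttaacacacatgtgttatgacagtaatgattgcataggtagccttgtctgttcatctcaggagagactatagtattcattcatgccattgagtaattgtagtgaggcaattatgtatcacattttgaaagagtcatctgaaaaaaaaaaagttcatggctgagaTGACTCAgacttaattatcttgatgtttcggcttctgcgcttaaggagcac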

How the data were processed

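Gene expression was measured by RNA-seq (mRNA-seq libraries made with a TruSeq kit from TRIzol-extracted total RNA, per the labels' protocols) in 18 libraries, of which the 6 of WT 60 and WT 20 are compared. Tools listed in the submitters' processing notes are HISAT2 2.1.0, StringTie 2.1.3b, FastQC 0.11.7 and bcl2fastq 2.20.0, the build is mm10, and the strand is not stated. The authors deposited a table of 45777 genes with a read count, an FPKM and a TPM value per library, per the file headers. The deposited counts are not normalized, and 54 of 54 value columns were mapped.

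Counts of 17159 genes kept by filterByExpr were scaled with TMM factors and fitted in edgeR 4.0.16 (R 4.3.3) with quasi-likelihood tests and the 6 group means as coefficients, over all 18 libraries. The threshold for a call was 0.05 after Benjamini-Hochberg adjustment. Differences between genotypes were tested as an interaction. A count of 3, the limit that a count of 0 allows, is 0.0822 to 0.122 CPM in these 6 libraries and covers counting error only. Single values were tested with exact permutation tests.

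The rule named the 15 largest called falls and 15 largest called rises of genes that averaged 5 CPM or more in WT 60 or WT 20, and 2 to 4 members of each list. Members and lists were chosen with earlier results of these data known. Positions, biotypes and promoters come from RefSeq, GRCm38.p6, which held 99.8% of the gene IDs. The promoter table held 27 of the 30 named genes.

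In data simulated for WT 60 against WT 20 over 17159 genes, recovery was 26.8% for 56 genes with a 2-fold change, 91.8% for 73 with a 4-fold change and 95.8% for 71 with an 8-fold change. Of 156 calls 6 were false, and data without changes gave 0 calls. No library was a copy of another of its group. Alternatives used DESeq2 1.42.0, limma 3.58.1 on counts (voom) and on log2(TPM + 0.1), log2(TPM + 1) and log2(FPKM + 0.1), other scalings, filters, sample choices and thresholds. Figures were drawn with matplotlib 3.10.9.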

Additional observations from a re-analysis of the deposited data

How the results depend on the processing

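The count of called genes, 76 with 27 higher and 49 lower, moved with the samples in the fit, the tool and the scaling, and 0 of the values computed changed sign in a called result. With library size alone 37 genes were called (7 higher, 30 lower), with TPM and a pseudocount of 0.1 29 (4 and 25), with TPM and a pseudocount of 1 31 (6 and 25), and with FPKM 13 were higher among 51. With the 6 libraries alone 3 were called (0 higher, 3 lower), with the 9 WT libraries 15 (3 and 12), and at an adjusted p of 0.01 37 (9 and 28). DESeq2 called 330 (148 higher, 182 lower), the mitochondrial share as a covariate gave 128 calls with 57 higher, and a minimum of 5 CPM gave 47 higher. Without both libraries over 30% mitochondrial share, chosen after seeing the data, 21 were called (3 higher, 18 lower). Leaving out single libraries or numbers gave 11 to 59 calls, 2 to 26 higher and 9 to 46 lower. In KO, 191 genes were called between 60 and 20, against 538 with DESeq2. The cause of these shifts was not tested. With DESeq2 size factors, mitochondrial genes left out, no filter, voom or protein-coding genes alone, the count stayed within 67 to 82. Of 807 values of the 30 named genes under the alternatives, 554 kept their call and 253 lost it, all in the same direction.

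Libraries of the same number were not treated as pairs. The deviations from the group means correlated at 0.05, 0.01 and 0.66 for 4120, 414 and 6110. Of the 3 WT 60 libraries, 1 correlated best with the WT 20 library of its number. With 3 libraries per group these values cannot show that pairing is absent, and Xist marked number 414 in both groups. With the number as a block on the 6 libraries 0 genes were called (0 higher, 0 lower; 1505 at an unadjusted p under 0.05). With each number of a genotype as a block over 18 libraries 585 were called (279 higher, 306 lower), with all 76 among them, and 975 in KO. Depth of 24490548 to 36474588 counts leaves Il33 and Il10, under 1 CPM, beyond what this design can resolve.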
